A study of Homo sapiens with 11 samples.

Results

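Potassium channel subunits were described here in human cardiomyocytes kept in long-term culture. The genes were all those of the deposited count table whose symbol is KCN, then a family letter or letters, then a number, which names pore-forming and accessory potassium channel subunits. The rule uses no measured value and found 72 of the 19990 genes of the table. GENCODE 29 lists 95 protein-coding symbols of this form, and the 23 others were not analysed here.

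The cells were cardiomyocytes made from passage 63 of the established human line WTC11, a line of induced pluripotent stem cells. One differentiation, started with the GSK3 inhibitor CHIR99021 and continued with the Wnt inhibitor IWP2, supplied all wells, which were then kept in RPMI1640 medium with B27 containing insulin. Poly(A) RNA came from 4 wells collected at Day 30, from 3 collected at Day 60 and from 4 collected at Day 113, and no group received a further treatment. The wells are therefore replicates of 1 differentiation of 1 line, p-values measure only the spread between these wells, and day cannot be told apart from the occasion of collection.

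Potassium channels carry the outward currents that end the cardiac action potential and the inward-rectifier current that holds the resting potential. A channel is an assembly of pore-forming subunits, and accessory subunits bound to the pore change its gating, trafficking or pharmacology. In heart muscle the names of the currents follow the pore: the transient outward current shapes early repolarisation, the rapid and slow delayed rectifiers end the plateau, and the inward rectifier stabilises the cell at rest. Cardiomyocytes derived from stem cells are known for a small inward-rectifier current compared with adult ventricular cells.

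Libraries held 24071375 to 34546715 counts. Levels are given as CPM, which are counts per 1000000 of the scaled library size, and levels of different genes are compared only after division by exon length (CPM per kilobase). All 8 cardiomyocyte markers examined (among them TNNT2, MYH7 and RYR2) were present, with a summed level of 19518 to 29709 CPM over the 11 wells. Of the 72 genes, 56 had counts in all 11 libraries, 57 had a mean of at least 1 CPM on at least 1 day, and 15 stayed under that level on every day. The gene with fewest counts had 51 over the 11 libraries. All 72 passed the filter on low counts and were tested.

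Per kilobase, the transcript pool was led by an accessory subunit and a delayed rectifier. At Day 30, KCNH2, the pore of the rapid delayed rectifier, stood at 32.9 ± 3.94 CPM per kilobase (SD, n = 4) and KCNIP2, the calcium-binding accessory subunit of the transient outward channel, at 32.4 ± 4.26 (SD, n = 4). The wells of these genes overlapped, and both lay above every other subunit. By Day 113 KCNIP2 had reached 91.3 ± 13.4 CPM per kilobase (SD, n = 4), with its wells from 72.6 to 103 and those of KCNH2 from 39.4 to 49.4, so the order of this pair was clear of the spread. The next ranks at Day 113 were KCNJ5, a pore subunit of the acetylcholine-activated channel, at 18.6 ± 2.58 CPM per kilobase, KCNK6, a leak channel, at 17.0 ± 3.38, and KCNQ1, the pore of the slow delayed rectifier, at 13.9 ± 1.09 (SD, n = 4 each). Wells of KCNJ5 and KCNK6 overlapped, as did those of KCNK6 and KCNQ1. KCNJ8 (9.38), KCNQ5 (7.19), KCNMB4 (6.83), KCNN2 (5.32) and KCNJ11 (4.14 CPM per kilobase) followed, each overlapping the next in order. With the longest transcript in place of the exon union, the same 10 genes held the 10 highest places at Day 113.

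**Figure D1:**
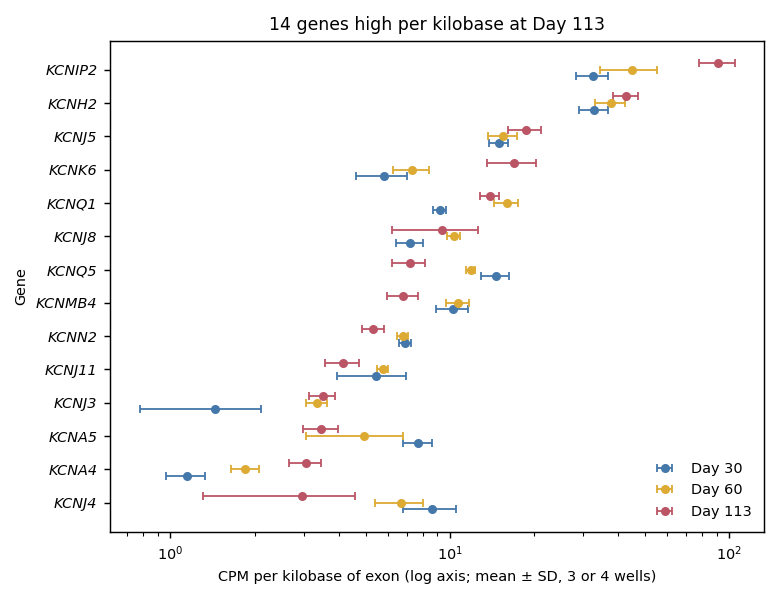
Mean CPM per kilobase of exon (log axis, with SD over 4, 3 and 4 wells) of 14 subunit genes among the highest at Day 113, for each day. KCNIP2 moves from 32.4 to 91.3 CPM per kilobase and KCNK6 also moves up, while KCNQ5 and KCNJ4 move down.

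The summed level of all 72 genes was 206 ± 9.94 CPM per kilobase at Day 30 (SD, n = 4), 228 ± 20.9 at Day 60 (SD, n = 3) and 264 ± 19.1 at Day 113 (SD, n = 4). KCNIP2 made up 34.5% of that sum at Day 113, and it made up 84.8% of the sum of the 15 accessory subunits. The accessory subunits together went from 52.5 ± 3.63 to 108 ± 12.2 CPM per kilobase between Day 30 and Day 113, and the wells of these days did not overlap. At Day 30 KCNIP2 was 61.8% of the accessory sum, so the rise of this class followed that of KCNIP2. The 26 voltage-gated pore subunits stayed at 83.5 ± 7.61, 89.2 ± 10.2 and 80.4 ± 3.68 CPM per kilobase on the 3 days, with overlapping wells. The 12 inward rectifiers were likewise at 42.7 ± 4.04, 46.6 ± 2.30 and 43.0 ± 7.19, again with overlap. The 6 leak channels of the 2-pore-domain type went in sum from 8.61 ± 2.49 to 18.7 ± 3.21 CPM per kilobase with KCNK6 as 90.8% of the Day 113 value, and the 7 calcium- or sodium-activated channels went from 13.8 ± 1.05 to 9.16 ± 0.94. These sums are descriptions and were given no test.

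**Figure D2:**
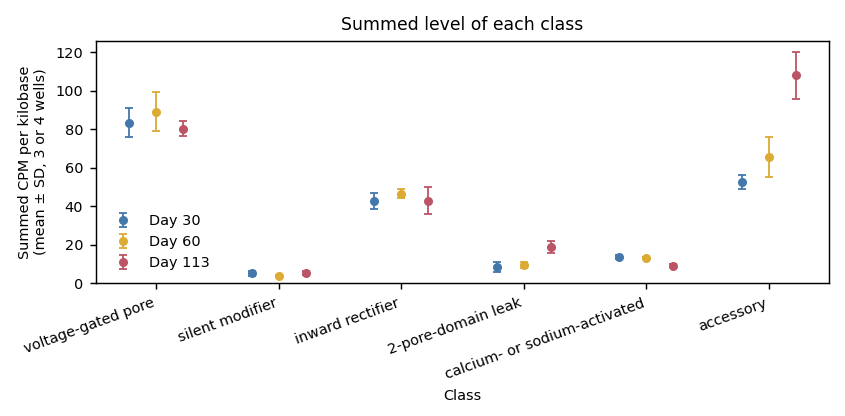
Summed CPM per kilobase (mean with SD over 4, 3 and 4 wells) of the genes of each class on each day. The accessory class goes from 52.5 at Day 30 to 108 at Day 113, with KCNIP2 as 61.8% and 84.8% of these sums. The voltage-gated pore class lies between 80.4 and 89.2 on all days.

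From Day 30 to Day 60, 9 of 72 genes passed the test (12.5%), where 10.3% of all genes tested did. KCNA4, KCNJ3, KCNQ1, KCNQ3 and KCNMB2 rose (5 of 72, against 4.39% of all genes that rose), and KCNJ2, KCNG1, KCNMA1 and KCNN4 fell (4 of 72, against 5.91%). From Day 60 to Day 113, 20 genes passed (27.8%, against 24.0% of all genes), 8 of them higher (12.9% of all genes) and 12 lower (11.1%). Over the whole span, from Day 30 to Day 113, 36 passed (50.0%, against 34.5%), 19 higher (17.3%) and 17 lower (17.2%). A test for any change over the 3 days called 35 (48.6%, against 37.1%). The median log2 fold change over all 72 was 0.06, -0.02 and -0.09 for these 3 comparisons in the same order, beside -0.01, 0.00 and -0.02 over all genes. The median size of the change without its sign was 0.604, 0.553 and 1.03, beside 0.273, 0.390 and 0.432, and it includes genes with few counts. Wells did not overlap between the days compared in 25, 22 and 36 genes, where 24.8%, 30.6% and 35.1% of all genes did not overlap. The first 2 of these comparisons share the Day 60 wells, so their calls are not independent. With DESeq2 in place of edgeR the first comparison called 18 genes, and with only the 2 days in the fit it called 15.

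**Figure D3:**
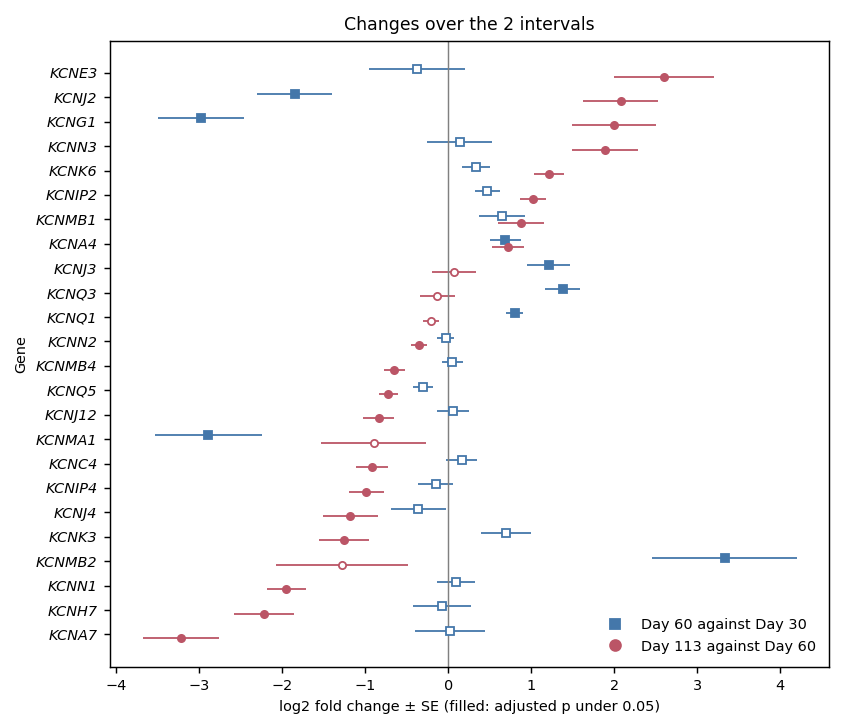
Log2 fold change with its standard error from edgeR for 24 genes called in at least 1 of the 2 intervals (blue squares, Day 60 against Day 30; red circles, Day 113 against Day 60; filled where the adjusted p was under 0.05). Filled circles lie on both sides of 0, and KCNJ2 and KCNG1 have filled points on opposite sides of 0.

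Among genes of the transient outward current, the accessory subunit and one pore rose while the other pores stayed under 4 CPM. KCNIP2 was at 126, 91.0, 114 and 110.0 CPM in the Day 30 wells, 193, 130.5 and 134 in the Day 60 wells, and 333, 351, 247 and 309.5 in the Day 113 wells. Every Day 113 well was above every Day 60 well, and every Day 60 well above every Day 30 well. On the log2 scale the first interval gave 0.47 ± 0.15 (SE, adjusted p = 0.062), the second 1.02 ± 0.16 (adjusted p = 2.8e-04) and the span 1.49 ± 0.14 (adjusted p = 1.4e-06). KCNIP2 shares exon sequence with KCNIP2-AS1 on the opposite strand, whose mean level was 1.84, 2.72 and 2.28 CPM on the 3 days, and whether counting used strand is not given in the sources used here. KCNA4, a pore of the slow component, stepped up over both intervals: its wells were at 4.62, 5.04, 3.88 and 5.74 CPM, then 7.60, 7 and 8.77, then 13.5, 10.7, 14.6 and 12.6. No well of a day overlapped another day for KCNA4, and over the span it rose by 1.41 ± 0.18 on the log2 scale (adjusted p = 2.1e-05). It was called in each interval (0.69 ± 0.19, adjusted p = 0.029, and 0.72 ± 0.19, adjusted p = 0.013). The first of these calls was lost with limma-voom (0.051) and without Day 30 replicate 1, 2 or 3 (0.071, 0.053 and 0.089) or Day 60 replicate 1 or 3 (0.064 and 0.11), and the second without Day 60 replicate 1 or 2 (0.052 and 0.053).

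KCND2 and KCND3 encode the Kv4 pores that KCNIP2 binds. KCND2 was at 1.11, 0.667, 1.48 and 1.06 CPM at Day 30, 1.02, 0.663 and 1.26 at Day 60, and 0.664, 1.27, 3.94 and 2.33 at Day 113. KCND3 lay between 0.584 and 1.45 CPM at Day 30, between 0.189 and 1.21 at Day 60 and between 1.01 and 2.05 at Day 113. Both sets of wells overlapped between days, and neither gene passed in any comparison (KCND2 over the span 0.92 ± 0.52, adjusted p = 0.19, and KCND3 over the second interval 1.28 ± 0.63, adjusted p = 0.16). KCNE3, a single-span accessory subunit of voltage-gated pores, rose late: 2.14, 1.07, 0.494 and 0.412 CPM at Day 30, 0.766, 0.737 and 0.852 at Day 60, and 4.56, 5.29, 7.65 and 1.60 at Day 113. The Day 113 wells lay above all Day 60 wells, though the lowest of them was below the highest Day 30 well (second interval 2.60 ± 0.60, adjusted p = 0.0054; span 2.22 ± 0.53, adjusted p = 0.0038). KCNIP3, another calcium-binding accessory subunit, rose over the span from 0.103 to 0.625 CPM to 1.59 to 3.00 (2.58 ± 0.58, adjusted p = 0.0027), whereas KCNIP4 fell after Day 60 from 11.2 to 18.6 CPM to 5.85 to 10.1 (-0.99 ± 0.21, adjusted p = 0.0027).

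The delayed-rectifier pores KCNH2 and KCNQ1 were not called in the same comparisons, and no test compared their timing. KCNH2 read 217, 171, 176 and 209 CPM at Day 30, 249, 222 and 194 at Day 60, and 242, 291, 244 and 232 at Day 113. Neighbouring days overlapped, and only the span passed (0.38 ± 0.11, adjusted p = 0.013; intervals 0.20 ± 0.12, adjusted p = 0.36, and 0.18 ± 0.12, adjusted p = 0.29). KCNQ1 was at 42.7, 42.5, 38.0 and 40.3 CPM at Day 30 and at 79.2, 66.9 and 67.4 at Day 60, where it stood clear of Day 30 (0.80 ± 0.10, adjusted p = 1.3e-04). It then stood at 63.1, 67.9, 57.4 and 58.3 CPM at Day 113, overlapping Day 60 (-0.21 ± 0.10, adjusted p = 0.16), and the difference between its changes in the 2 intervals passed the test (-1.01, adjusted p = 0.0026). KCNQ1 shares exon sequence with the antisense RNA KCNQ1OT1, which was called lower in the second interval (below). KCNE1, the accessory subunit that slows KCNQ1, was at 4.55, 4.10, 2.90 and 4.74 CPM at Day 30 and 2.08, 1.46, 3.14 and 1.52 at Day 113. The highest Day 113 well overlapped the lowest Day 30 well, and the lower level over the span (-0.98 ± 0.33, adjusted p = 0.029) no longer passed without Day 30 replicate 1, 2 or 4 (0.074, 0.059 and 0.075) or Day 113 replicate 2 or 4 (0.07 and 0.076). A near-identical copy, KCNE1B, is in the table at a mean of 4.42, 3.83 and 2.26 CPM on the 3 days, so the split of reads between them is uncertain. KCNE2, an accessory subunit paired with KCNH2, had no count in 5 of 11 libraries and reached at most 1.15 CPM.

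**Figure D4:**
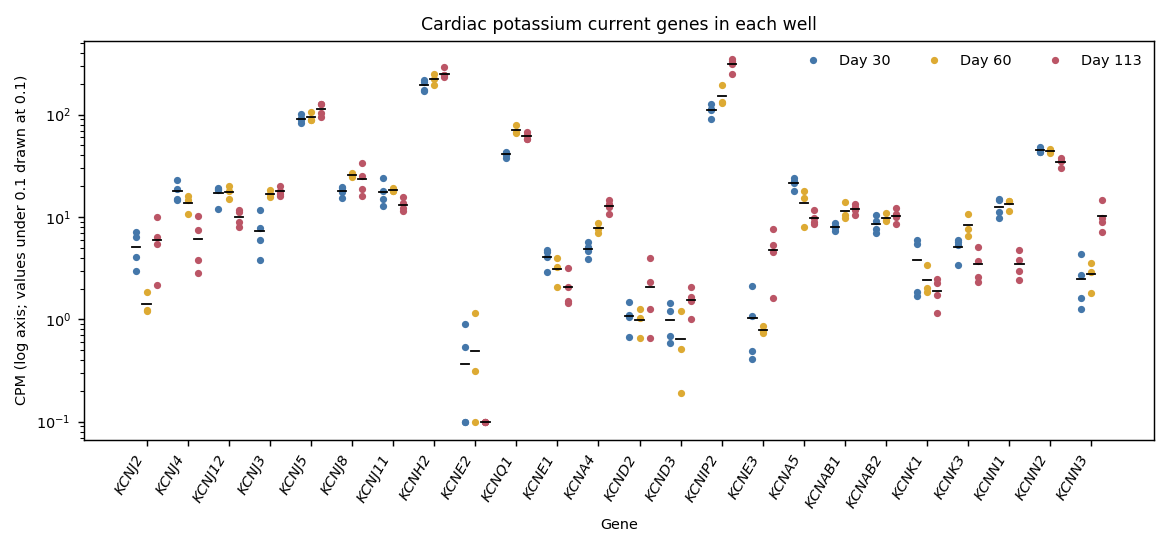
CPM in each well (points, log axis, values under 0.1 drawn at 0.1) and the mean of each day (bars) for the 24 genes of named cardiac potassium currents. KCNIP2 and KCNH2 are highest, KCNA4 and KCNIP2 step up over the days, and KCNJ2 dips at Day 60.

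The 3 inward-rectifier pores of the resting current did not move together. KCNJ2, the Kir2.1 pore, fell and came back: 4.05, 6.40, 7.14 and 2.99 CPM at Day 30, 1.21, 1.84 and 1.23 at Day 60, and 6.41, 10.1, 5.42 and 2.17 at Day 113. All Day 60 wells lay below all wells of the other days, which overlapped each other. The first interval gave -1.85 ± 0.45 (adjusted p = 0.015) and the second 2.08 ± 0.45 (adjusted p = 0.0038). The span was not called (adjusted p = 0.69). The change in the second interval minus that in the first was 3.93 ± 0.85 (adjusted p = 0.0095). The fall was lost with limma-voom (0.075) and without Day 60 replicate 1 or 3 (0.07 and 0.073), and the difference with limma-voom (0.054) and without the same wells (0.063 and 0.058). KCNJ2 shares exon sequence with KCNJ2-AS1, whose mean was 0.425, 1.22 and 1.11 CPM on the 3 days.

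KCNJ4 (Kir2.3) and KCNJ12 (Kir2.2) fell after Day 60. KCNJ12 was at 18.8, 19.1, 11.9 and 18.3 CPM at Day 30, 18.1, 20 and 15.1 at Day 60, and 7.94, 11.2, 8.96 and 11.6 at Day 113, where all wells were below those of the earlier days (second interval -0.84 ± 0.19, adjusted p = 0.0052). The reads of KCNJ12 are uncertain because of the near-identical KCNJ18. KCNJ4 went from 16.0, 14.7 and 10.8 CPM at Day 60 to 3.81, 7.54, 10.2 and 2.85 at Day 113, just without overlap (-1.18 ± 0.33, adjusted p = 0.016), and this call was lost without Day 60 replicate 1 (0.061). From Day 30 the fall of KCNJ4 was 1.54 on the log2 scale (-1.54 ± 0.31, adjusted p = 0.0011). Per kilobase, KCNJ4 stood at 8.63 ± 1.84 at Day 30 and 2.95 ± 1.64 at Day 113 (SD, n = 4 each).

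Both pores of the acetylcholine-activated channel were higher at Day 113 than at Day 30. KCNJ3 read 7.79, 5.94, 3.82 and 11.8 CPM at Day 30, 16.8, 15.6 and 18.5 at Day 60, and 18.0, 16.9, 15.9 and 20.3 at Day 113. All later wells lay above the Day 30 wells, and the rise fell in the first interval (1.21 ± 0.26, adjusted p = 0.0073; second interval not called). KCNJ5 was at 82.8 to 101 CPM at Day 30 and 95.7 to 128 at Day 113 with overlapping wells (0.32 ± 0.11, adjusted p = 0.034). That call was lost with upper-quartile scaling (0.051) and without Day 30 replicate 1, 3 or 4 (0.069, 0.077 and 0.1) or Day 113 replicate 2 or 3 (0.077 and 0.1). The ATP-sensitive pores were not called: KCNJ8 had a mean of 17.9, 25.6 and 23.3 CPM and KCNJ11 of 17.5, 18.4 and 13.3 on the 3 days (span 0.38 ± 0.19, adjusted p = 0.13, and -0.40 ± 0.18, adjusted p = 0.098). KCNJ13 and KCNJ16, inward rectifiers at low levels, were called over the span. KCNJ16, a partner of other Kir pores, went from 1.18 to 1.97 CPM at Day 30 to 0 to 0.371 at Day 113 (-3.15 ± 1.05, adjusted p = 0.029), a call lost without Day 30 replicate 2 or 3 (0.061 and 0.071) or Day 113 replicate 4 (0.059). KCNJ13, named after its values were seen, went from 0.382 to 1.31 CPM to 0.924 to 6.85 with overlapping wells (2.24 ± 0.58, adjusted p = 0.007), a call lost with limma-voom (0.072). KCNJ13 shares exon sequence with GIGYF2 on the opposite strand. KCNJ16 and KCNJ2 are neighbours on chromosome 17 (70053429 to 70135608 and 70168673 to 70180048, both on the plus strand, GRCh38). From Day 30 to Day 60 KCNJ2 was called lower. KCNJ16 was at 0 to 0.252 CPM at Day 60, below all its Day 30 wells, but was not called in that interval (adjusted p = 0.075). After Day 60 KCNJ2 rose, and KCNJ16 was not called.

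Voltage-gated pores outside the transient outward current mostly fell after Day 60. KCNA7, a Shaker-type pore, held 4.39, 3.70, 4.08 and 3.57 CPM at Day 30 and 4.05, 4.16 and 3.79 at Day 60, then 0.115, 0.787, 0.571 and 0.241 at Day 113. The first groups overlapped and the last lay far below both (-3.22 ± 0.46, adjusted p = 1.6e-04), and the change differed between intervals (-3.24, adjusted p = 0.011, but 0.051 without Day 60 replicate 1). KCNC4, a fast delayed-rectifier pore, fell after Day 60 from 9.10 to 13.2 CPM to 4.72 to 6.62 (-0.92 ± 0.19, adjusted p = 0.0027). KCNQ5, an M-current pore, had wells that stepped down without overlap between days, from 97.6 to 122 CPM at Day 30 through 86.9 to 93.6 at Day 60 to 49.0 to 64.9 at Day 113 (second interval -0.72 ± 0.12, adjusted p = 4.1e-04). Its relative KCNQ3 went up: 19.9, 13.5, 11.4 and 14.2 CPM at Day 30, 50.4, 31.2 and 33.7 at Day 60, and 46.4, 28.0, 36.1 and 29.5 at Day 113. KCNQ3 was thus higher in every later well, with the rise in the first interval (1.38 ± 0.21, adjusted p = 6.4e-04). The difference between its intervals (-1.52, adjusted p = 0.017) was lost without Day 60 replicate 1 (0.15).

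KCNA5, the pore of the ultrarapid delayed rectifier known from atrial muscle, was at 18.1, 24.1, 21.4 and 22.6 CPM at Day 30, 17.9, 15.5 and 7.92 at Day 60, and 11.7, 9, 9.73 and 8.50 at Day 113. The Day 60 wells spread from just below the Day 30 range to below the Day 113 range, and the fall passed over the span (-1.15 ± 0.21, adjusted p = 5.1e-04) but in neither interval (-0.65 ± 0.22, adjusted p = 0.082, and -0.50 ± 0.22, adjusted p = 0.12). Its beta subunit KCNAB1 rose over the span from 7.37 to 8.81 CPM to 10.5 to 13.4 (0.57 ± 0.16, adjusted p = 0.013), and KCNAB2 was not called (0.27 ± 0.18, adjusted p = 0.26). KCNH7, of the ERG family, fell after Day 60 from 12.1 to 16.4 CPM to 1.09 to 4.17 (-2.22 ± 0.36, adjusted p = 4.5e-04), and it shares exon sequence with GCA. The difference between its intervals (-2.15, adjusted p = 0.035) was lost with robust dispersions (0.055) and without Day 30 replicate 3 (0.064) or each Day 60 well in turn (0.055 to 0.14). KCNH5, of the EAG family, went from 0.618 to 1.45 CPM at Day 30 to 0 to 0.281 at Day 113 (-3.32 ± 1.12, adjusted p = 0.031). That call was lost without Day 30 replicate 1, 2 or 3 (0.074, 0.066 and 0.059) or Day 113 replicate 2 or 3 (0.058 and 0.06). KCNA1 and KCNA2, named after their values were seen, were also called over the span with no count in 3 of 4 Day 30 wells each and at most 1.82 and 1.48 CPM at Day 113. The KCNA1 call was lost without Day 30 replicate 1, 3 or 4 (0.063, 0.06 and 0.06), and the KCNA2 call with limma-voom (0.062) and without Day 30 replicate 2, 3 or 4 (0.056, 0.056 and 0.055) or Day 113 replicate 3 (0.057).

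Among the silent modifiers, which form no channel alone but alter other pores, KCNG1 dipped at Day 60. It was at 10.4, 22.8, 16.5 and 9.10 CPM at Day 30, 1.82, 3.02 and 0.789 at Day 60, and 15.2, 4.35, 6.02 and 4.17 at Day 113. All Day 60 wells were lowest, and the other days overlapped through Day 113 replicate 1 (first interval -2.98 ± 0.52, adjusted p = 0.0018; second 2.00 ± 0.51, adjusted p = 0.0098; their difference 4.98 ± 0.97, adjusted p = 0.0053). The second call was lost without Day 60 replicate 3 (0.052). KCNS2 and KCNV1 rose over the span. KCNS2 went from 0.167 to 0.878 CPM to 1.80 to 7.16 (3.07 ± 0.56, adjusted p = 5.6e-04), and KCNV1 from 1.33 to 4.36 CPM to 3.57 to 7.95 with overlap (1.04 ± 0.35, adjusted p = 0.032). The KCNV1 call was lost without Day 30 replicate 1, 2 or 3 (0.076, 0.082 and 0.051) or Day 113 replicate 2 or 3 (0.087 and 0.095).

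KCNK6 was the one leak channel at a high level and the clearest riser of its class. Its wells were at 33.0, 41.1, 42.6 and 26.8 CPM at Day 30, 47.2, 50.6 and 37.7 at Day 60, and 89.7, 132, 110.4 and 86.6 at Day 113. The Day 113 wells lay above all others (first interval 0.33 ± 0.17, adjusted p = 0.27; second 1.21 ± 0.18, adjusted p = 1.8e-04; span 1.54 ± 0.16, adjusted p = 3.1e-06). KCNK3, an acid-sensitive background channel of atrial muscle, was highest at Day 60: 3.36, 5.90, 5.33 and 5.67 CPM, then 10.7, 7.63 and 6.5, then 2.31, 2.62, 3.74 and 5.13. Only its fall after Day 60 passed (-1.26 ± 0.30, adjusted p = 0.0067; first interval 0.70 ± 0.30, adjusted p = 0.16). The difference between its intervals (-1.97, adjusted p = 0.025) was lost without Day 60 replicate 1 or 2 (0.18 and 0.056). KCNK1 was not called (span -0.98 ± 0.43, adjusted p = 0.096), with Day 30 replicates 2 and 3 at 5.47 and 6.02 CPM and all other wells at 1.16 to 3.39.

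The small-conductance calcium-activated channels moved apart. KCNN2, the most abundant of them per kilobase, was at 42.0 to 48.1 CPM through Day 60 and at 37.7, 34.9, 30.2 and 35.2 at Day 113, below every earlier well. That fall was small (-0.35 ± 0.10, adjusted p = 0.022) and was lost with only the 2 days in the fit (0.058) and without Day 60 replicate 1 (0.076) or Day 113 replicate 3 (0.066). KCNN1 was at 14.9, 14.6, 11.1 and 9.72 CPM at Day 30, 14.4, 11.5 and 14.4 at Day 60, and 2.94, 4.76, 2.42 and 3.81 at Day 113. The first days overlapped and the last lay below both (-1.95 ± 0.23, adjusted p = 4.2e-05), and the intervals differed (-2.04, adjusted p = 0.0047). KCNN3 did the opposite, with 1.60, 2.74, 4.31 and 1.27 CPM, then 1.82, 3.54 and 2.90, then 14.8, 7.20, 9.84 and 8.87 (second interval 1.89 ± 0.40, adjusted p = 0.003). All Day 113 wells were above all earlier wells of KCNN3.

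KCNMA1, the large-conductance pore, was at 7.07, 20, 13.7 and 7.94 CPM at Day 30, 3.29, 0.774 and 0.852 at Day 60, and 0.0866, 1.39, 1.08 and 1.00 at Day 113. Every Day 30 well lay above every later well (first interval -2.89 ± 0.64, adjusted p = 0.0089, lost without Day 60 replicate 3 at 0.056; span -3.79 ± 0.61, adjusted p = 1.8e-04). Its accessory subunits went different ways. KCNMB1 rose over the span from 2.30 to 4.09 CPM to 5.22 to 12.2 (1.53 ± 0.26, adjusted p = 3.3e-04). Its rise after Day 60 (0.88 ± 0.28, adjusted p = 0.032) was lost without each of the Day 60 wells in turn (0.073 to 0.098) and without Day 113 replicate 2 or 3 (0.083 and 0.085). KCNMB4, the most abundant of the 4 per kilobase, fell after Day 60 from 48.5 to 57.8 CPM to 28.0 to 37.5 (-0.65 ± 0.13, adjusted p = 0.0018). KCNMB2 was at 0 to 0.206 CPM in the Day 30 wells, at 1.28, 1.07 and 1.17 at Day 60 and at 0.257 to 0.712 at Day 113 (first interval 3.33 ± 0.87, adjusted p = 0.022). That call was lost without Day 30 replicate 1 or 3 (0.055 and 0.053) or Day 60 replicate 1 or 3 (0.064 and 0.054). The difference between its intervals (-4.60, adjusted p = 0.045) was lost without each Day 60 well in turn (0.091 to 0.14), without Day 30 replicate 1 or 3 (0.066 and 0.067) and without Day 113 replicate 1, 3 or 4 (0.059, 0.066 and 0.056).

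KCNN4, the intermediate-conductance channel of non-excitable cells, was at 0.458, 2.33, 1.84 and 0.515 CPM at Day 30, had no count in the 3 Day 60 wells, and had counts in 1 of 4 Day 113 wells (0.114 CPM). Against a floor of 3 counts per library its level was at least 12.8-fold lower at Day 60 than at Day 30, and it was called in the first interval and over the span (adjusted p = 0.0093 and 0.0044). KCNT1, a sodium-activated pore named after its values were seen, was called over the span (1.78 ± 0.64, adjusted p = 0.041) between 0.115 and 1.05 CPM at Day 30 and 0.562 and 2.05 at Day 113. That call was lost with only the 2 days in the fit (0.058) and without Day 30 replicate 1, 2 or 4 (0.1, 0.1 and 0.09), Day 60 replicate 2 (0.053) or Day 113 replicate 1, 2 or 3 (0.093, 0.057 and 0.094), and without Day 30 replicate 3 the log2 fold change was 2.73. KCNT2, also named after its values were seen, was more abundant at a mean of 19.7, 19.5 and 14.7 CPM and was not called.

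By the sequence of calls over the intervals, the 72 genes fell into few courses. KCNA4 alone was called higher in both intervals. KCNJ3, KCNQ1 and KCNQ3 rose by Day 60 and were not called after it. KCNE3, KCNIP2, KCNK6, KCNMB1 and KCNN3 were called higher in the second interval and not called in the first. A further 11 were called lower in the second interval and over the span, and not called in the first (among them KCNA7, KCNC4, KCNH7, KCNIP4, KCNJ4, KCNJ12, KCNMB4, KCNN1, KCNN2 and KCNQ5). KCNJ2 and KCNG1 fell and then rose. Being called in 1 interval and not in the other is no test of a difference between them. That difference itself passed for 9 of 72 genes (12.5%, against 9.34% of all genes), above 0 for KCNJ2 and KCNG1 (4.97% of all genes) and below 0 for KCNA7, KCNH7, KCNK3, KCNMB2, KCNN1, KCNQ1 and KCNQ3 (4.38%). Without Day 60 replicate 1 the count was 3. No call was made for 32 genes in any comparison of 2 days.

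The sequence just before a RefSeq start of 5 genes is shown because they moved in opposite ways: KCNIP2, KCNK6 and KCNA4 rose after Day 60, and KCNC4 and KCNJ4 fell after it. The windows are from RefSeq on GRCh38.p14, 5′ to 3′ on the strand of the gene, without bases that GENCODE 29 places in an exon, and capitals mark a GC box (GGGCGG on either strand). For KCNC4 and KCNJ4 the bases after the RefSeq start are in no GENCODE 29 transcript of the gene, so whether these cells use those starts is not known from the counts. The KCNJ4 window lies inside the span that GENCODE 29 gives this gene (38426327 to 38455199, minus strand), so it is not upstream of the whole gene. The KCNC4 window ends before the GENCODE 29 start of its gene (110211343) and does not adjoin it.
KCNIP2: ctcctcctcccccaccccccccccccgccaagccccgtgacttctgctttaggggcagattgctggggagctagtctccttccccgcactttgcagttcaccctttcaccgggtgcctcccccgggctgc
KCNK6: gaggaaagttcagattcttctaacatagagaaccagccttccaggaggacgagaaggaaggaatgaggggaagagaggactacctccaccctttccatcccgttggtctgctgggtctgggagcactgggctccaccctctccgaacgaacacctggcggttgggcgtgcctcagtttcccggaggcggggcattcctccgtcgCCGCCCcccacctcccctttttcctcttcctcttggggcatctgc
KCNA4: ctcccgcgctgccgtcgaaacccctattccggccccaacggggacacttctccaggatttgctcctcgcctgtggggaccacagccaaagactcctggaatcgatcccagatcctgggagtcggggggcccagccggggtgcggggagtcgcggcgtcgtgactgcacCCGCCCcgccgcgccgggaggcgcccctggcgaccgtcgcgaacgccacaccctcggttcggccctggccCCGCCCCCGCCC
KCNC4: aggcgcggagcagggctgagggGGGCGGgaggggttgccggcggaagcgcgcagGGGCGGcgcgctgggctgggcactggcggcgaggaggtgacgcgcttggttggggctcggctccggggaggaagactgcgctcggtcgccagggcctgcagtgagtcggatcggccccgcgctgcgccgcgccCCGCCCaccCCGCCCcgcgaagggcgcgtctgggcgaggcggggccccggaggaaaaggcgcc
KCNJ4: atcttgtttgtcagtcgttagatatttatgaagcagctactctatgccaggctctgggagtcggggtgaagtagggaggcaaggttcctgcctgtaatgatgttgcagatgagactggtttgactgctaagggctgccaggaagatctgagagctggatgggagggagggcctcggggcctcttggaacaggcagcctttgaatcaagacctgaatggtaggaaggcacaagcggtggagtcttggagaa
They lie at chr10:101843921-101844050 (minus strand), chr19:38319595-38319843 (plus), chr11:30017031-30017280 (minus), chr1:110210064-110210313 (plus) and chr22:38444029-38444278 (minus). G and C made up 67.7%, 59.8%, 73.2%, 79.2% and 52.4% of these bases in that order, and GC boxes numbered 0, 1, 3, 4 and 0. None of the 5 held TATAAA on either strand. RefSeq windows were found for 53 of the 72 genes (83 windows of 250 bases before a start, since some genes have several starts). A GC box lay in 53.0% of those 83 windows and in 42.6% of all 35116 windows of that length. The E-box CANNTG lay in 55.4% and 61.8%, CCAAT in 33.7% and 32.0% and TATAAA in 8.43% and 10.7%, all on either strand and allowing overlap. The median share of G and C was 64.8% in the 83 windows and 58.0% in all.

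Genes that act with these channels were read from a list of 26, of which 23 were in the table. In the first interval 5 of 23 rose (ABCC9, CAV3, FHL2, ADORA1 and RGS6), where 4.39% of all genes tested did. In the second 3 rose and 5 fell (12.9% and 11.1% of all genes), and over the span 9 rose and 3 fell (17.3% and 17.2%). Without Day 60 replicate 3 the second interval called 5 of them in place of 8. ABCC9, the sulphonylurea receptor of cardiac ATP-sensitive channels, was at 7.07, 6.77, 5.76 and 7.56 CPM at Day 30, 20, 13.8 and 16.1 at Day 60, and 27.0, 16.7, 22.9 and 35.5 at Day 113. Its Day 30 wells lay below all others (span 1.91 ± 0.21, adjusted p = 4.1e-06), while the pores it assembles with, KCNJ8 and KCNJ11, were not called. ABCC8, the receptor of pancreatic channels, had a mean of at most 0.439 CPM on any day.

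ADORA1, the adenosine receptor that opens the acetylcholine-activated channel, rose from 6.60 to 8.21 CPM through 11.1 to 21.6 to 21.6 to 33.6 (span 1.94 ± 0.20, adjusted p = 2.3e-06). Its rise after Day 60 (0.82 ± 0.21, adjusted p = 0.0093) was lost without Day 60 replicate 1 (0.051). RGS6, which speeds the closing of that channel, rose from 4.53 to 5.99 CPM to 13.7 to 22.8 (1.67 ± 0.18, adjusted p = 5.0e-06), and RGS4 fell from 9.17 to 41.8 CPM to 7.95 to 10.4 (-1.61 ± 0.31, adjusted p = 8.1e-04). The RGS4 change after Day 60 (-1.23 ± 0.33, adjusted p = 0.012) was lost without Day 60 replicate 3 (0.053). The muscarinic receptor CHRM2 stood at a mean of 162, 169 and 176 CPM and was not called.

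CAV3, the muscle caveolin, rose from 0.658 to 1.79 CPM at Day 30 to 5.92 to 12.8 at Day 113 (3.03 ± 0.33, adjusted p = 4.8e-06). FHL2, a partner of KCNE1, was at 1055 to 1130.1 CPM at Day 30, 1899 to 2625 at Day 60 and 1007 to 1683 at Day 113, highest in every Day 60 well (1.11 ± 0.15, adjusted p = 2.9e-04, then -0.71 ± 0.15, adjusted p = 0.0035). KCNQ1OT1, the antisense RNA of the KCNQ1 locus, fell after Day 60 from 47.5 to 74.8 CPM to 11.8 to 30.8 (-1.39 ± 0.25, adjusted p = 8.9e-04). NEDD4L, a ubiquitin ligase that targets KCNQ1, fell over the span from 83.1 to 97.4 CPM to 48.9 to 64.8 (-0.65 ± 0.10, adjusted p = 1.7e-04).

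Markers of other cell types moved with some of these genes. In RNA from whole wells, fewer cells of a type and less RNA per cell cannot be told apart. The 8 endoderm and epithelial markers summed to 469.6 to 1357 CPM at Day 30, 53.4 to 63.5 at Day 60 and 27.5 to 58.2 at Day 113, and 7 of 8 were lower at Day 60, beside the falls of KCNMA1, KCNN4 and KCNG1. Within Day 30 the sum was 1208, 1357, 1049 and 469.6 CPM in replicates 1 to 4. Replicate 2 was highest for the sum and for KCNMA1, KCNN4 and KCNG1. The sum and KCNG1 were lowest in replicate 4, but KCNMA1 and KCNN4 in replicate 1 (7.07 and 0.458 CPM). The part of endoderm and epithelial RNA in these falls was not tested. The 8 fibroblast and epicardial markers summed to 2561 to 5725 CPM at Day 30 and were highest there in replicates 2 and 3 (5725 and 5046). These wells were also highest for KCNMA1, KCNN4, KCNG1, KCNJ2, KCNJ16 and KCNK1. They were highest at Day 30 for other subunits too, among them KCNK6, KCNK13, KCNMB4 and KCNN3, and the share of all genes with this order was not counted. At Day 60 the fibroblast and epicardial sum was 1681 to 2781 CPM, overlapping Day 30, beside the lower levels of KCNJ2 and KCNG1 on that day. Of the 8 markers 2 were called higher and 2 lower from Day 30 to Day 60. In Day 30 replicates 1 and 4 KCNMA1 stood at 7.07 and 7.94 CPM and KCNG1 at 10.4 and 9.10. The part of fibroblast and epicardial RNA in these values was not tested either.

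The 6 endothelial markers (PECAM1 and CDH5 among them) summed to 55.8 to 76.2 CPM at Day 30, 38.0 to 63.4 at Day 60 and 195 to 800.3 at Day 113, and all 6 were higher at Day 113 than at Day 60, beside the rises of KCNN3, KCNG1, KCNJ2 and KCNE3. Day 113 replicate 1 was highest for the endothelial sum (800.3), for KCNN3 (14.8) and for KCNG1 (15.2), but KCNJ2 was highest in replicate 2 and KCNE3 in replicate 3. At Day 113 the fibroblast and epicardial sum was 4246 to 10174 CPM, against 1681 to 2781 at Day 60, beside the rises of KCNJ2 and KCNG1. The Day 113 sum was also highest in replicate 1, most of it from the collagens COL1A1 and COL3A1 (means of 3076 and 3623). Of these 8 markers 5 rose after Day 60 and 1 fell, and PDGFRA went from a mean of 96.5 to 32.3 CPM. The smooth muscle and pericyte sum (5 of 6 markers in the table) was 931 to 1424 against 726 to 882 at Day 60. Of these 5 markers 3 were called higher after Day 60 and 0 lower. CNN1 had a mean of 326 CPM at Day 60 and 328 at Day 113, and RGS5 of 186 and 180.1. KCNMB1 is a known smooth muscle gene and rose beside this sum. The part of these cell types in the results was not tested. The cardiomyocyte sum was 19518 to 21921 CPM at Day 113, below the 24706 to 29678 of Day 60, beside the 12 genes that fell after Day 60, and its part in them was not tested either. Its 8 markers did not move together: 2 were called lower and 1 higher after Day 60. MYH7 went from a mean of 14522 to 9277 CPM and PLN from 5242 to 3623, while TNNT2 went from 2993 to 4334 and TNNI3 from 240.3 to 298. LYZ, an immune marker, was at 0 in every Day 60 well, and every other marker in the table had counts on each day. PTPRC and MYH11 were not analysed here.

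**Figure D5:**
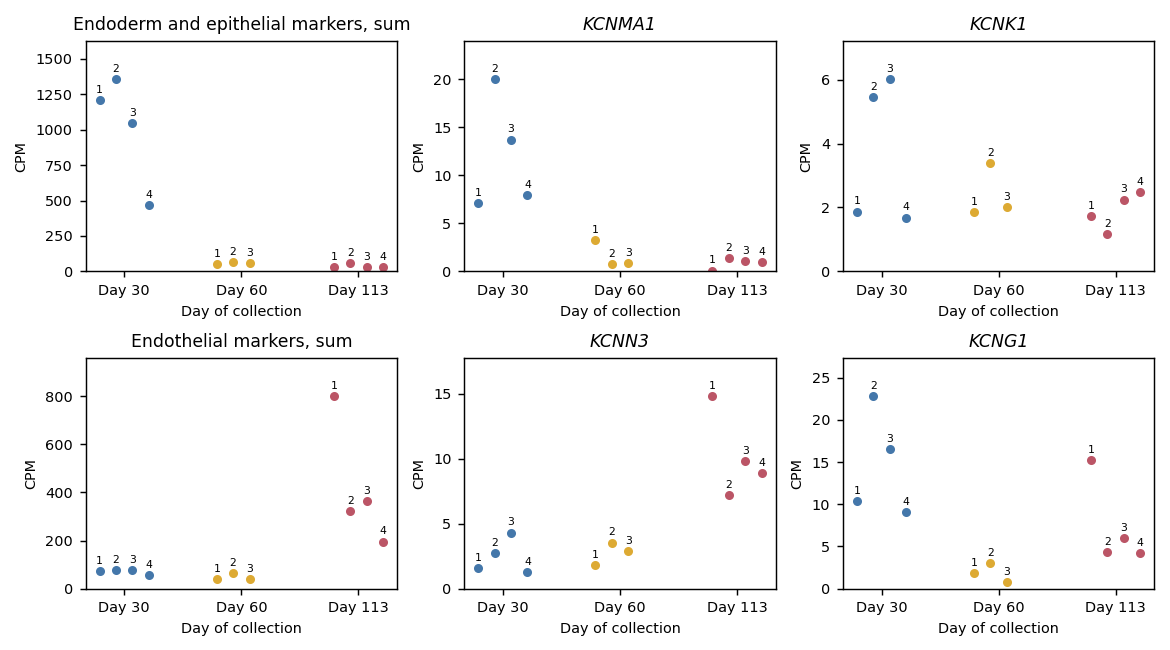
CPM in each well (points, numbered by replicate) for the summed endoderm and epithelial markers, KCNMA1 and KCNK1 (upper row) and the summed endothelial markers, KCNN3 and KCNG1 (lower row). Day 30 wells are highest in the upper left and KCNMA1 panels, and Day 113 replicate 1 is highest of its day for the endothelial sum (800.3), KCNN3 (14.8) and KCNG1 (15.2).

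Of the 24 genes of named cardiac currents, 4 were called in the first interval (10.3% of all genes tested were), 10 in the second (24.0%) and 15 over the span (34.5%), 9 of these higher and 6 lower. Without Day 60 replicate 3 the first count was 2. Wells of a day spread more for some genes than others. Among subunit genes with a mean of at least 10 CPM, the median coefficient of variation over wells was 12.6% at Day 30 (22 genes), 13.3% at Day 60 (22) and 13.8% at Day 113 (18), where all genes of that level had 8.42%, 10.0% and 13.2%. KCNN2 varied least at Day 30 (4.95%) and KCNMA1 most (49.3%), KCNQ5 least at Day 60 (3.94%) and KCNA5 most (37.8%), and KCNQ1 least at Day 113 (7.87%) and KCNJ8 most (34.0%).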

How the data were processed

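RNA-seq of 11 wells was read from 2 deposited tables. The authors deposited whole-number read counts per gene symbol, not normalized. Per the submitters' processing notes, STAR 2.5.3a, featureCounts 2.0.3 and the hg38 build were used. The annotation and strand setting are not given in the sources used here. The second table holds TPM values deposited by the authors. Gene lengths implied by count divided by TPM did not repeat between libraries (median Spearman rho -0.000946 over 55 library pairs and 14718 genes), so TPM was not used further.

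The counts of all 19990 genes entered 1 quasi-likelihood fit in edgeR 4.0.16 (glmQLFTest, R 4.3.3, TMM factors 0.966 to 1.04, filterByExpr with a minimum count of 10, which removed no gene), with day as the only factor and all 11 libraries in the fit. Benjamini-Hochberg adjustment ran over all genes, with a threshold of 0.05. Standard errors are the size of the log2 fold change over the root of the F statistic. Exon lengths came from GENCODE 29 (GRCh38). Wells of a day differed by more than sampling noise (chi-square per degree of freedom 11.1 to 80.8), so none was taken for a repeat deposit. Floors of 3 counts cover counting error only.

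Named genes were those of the cardiac current list, the 8 highest and 8 lowest called changes per comparison (wells not overlapping, mean of at least 1 CPM in the higher group), the 10 highest per kilobase at Day 113, called partners, and members of a class with 3 or fewer calls. A few genes taken by this rule are not reported here. Genes and lists were chosen with earlier results of these data known. Alternatives were DESeq2 1.42.0, limma-voom (limma 3.58.1), other scaling, filters, thresholds, dispersions, a replicate block, 2 days in the fit and leaving out each well.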

Additional observations from a re-analysis of the deposited data

Results flagged for a closer look

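The change from Day 60 to Day 113 differed from that from Day 30 to Day 60 for 9 genes by edgeR's test of the difference (log2 scale, second minus first): KCNG1 by 4.98, KCNJ2 by 3.93, KCNQ1 by -1.01, KCNQ3 by -1.52, KCNK3 by -1.97, KCNN1 by -2.04, KCNH7 by -2.15, KCNA7 by -3.24 and KCNMB2 by -4.60. KCNG1, KCNN1 and KCNQ1 kept this call under all 18 alternatives run for each.

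Single wells stood apart from the other 3 of their day in 12 of 140 gene and day pairs (8.57%) by Dixon's criterion at 95%. In 6 of these 12 the other 3 wells had no count, so any count in 1 well met it, and the share is not set against the 1 in 20 that chance flags in groups with measured spread. At levels a reader would look at, KCNG1 was highest in Day 113 replicate 1 (15.2 CPM), KCNC4 was highest in Day 30 replicate 2 (11.9) and lowest in Day 113 replicate 2 (4.72), and KCNJ12 was lowest in Day 30 replicate 3 (11.9). The others were at or under 1 CPM. KCNG2 was highest in Day 113 replicate 4 (0.963) and KCNIP1 lowest in Day 30 replicate 1 (0.611). KCNA1 (0.1) was highest in Day 30 replicate 2, KCNA2 (0.153) in replicate 1 and KCNH6 (0.0987) in replicate 3. At Day 113, KCNK5 and KCNN4 (0.114 each) were highest in replicate 3 and KCNE2 (0.0577) in replicate 1.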

How the results depend on the processing

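Of 88 called changes recomputed for single genes, each kept its direction under every alternative run. Of 685 values under other tools, scaling, filters, fits and the replicate block, 12 (11 changes) no longer passed, and of 966 values without 1 well, 80 (25 changes) no longer passed. Of 68 uncalled changes of the genes named by the rule, 23 changed sign under an alternative, and those are given no fold in the text. A further 22 uncalled changes, chosen after their values were seen as ones that kept their sign, were followed in full: 6 passed under another setting and 10 without 1 well.

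From Day 30 to Day 60, DESeq2 called 18 genes and a fit of only the 2 days 15 in place of 9. From Day 60 to Day 113, 12 of 20 had a log2 fold change of at least 1. For the difference between intervals (9 genes), DESeq2 gave 14, the replicate block 14 and an adjusted p under 0.01 gave 4. Cardiac current genes numbered 2 in place of 4 in the first interval at 0.01 and 2 at a log2 fold change of at least 1, and 8 in place of 15 over the span at the latter. Partners in the second interval numbered 5 in place of 8 at 0.01 and 3 at a log2 fold change of at least 1. Leaving out 1 well gave 6 to 13, 16 to 23 and 30 to 39 calls for the 3 comparisons, 32 to 38 for any change and 3 to 11 for the difference. Cardiac current genes then numbered 2 to 6, 7 to 12 and 13 to 16, and partners 5 to 6, 5 to 10 and 10 to 12.

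Same-numbered wells of different days correlated by 0.023 to 0.076 over 10 pairs, so the numbers were not taken as pairs, though 9 of 11 libraries correlated best with a library of their own number. With the replicate block the comparisons called 12, 24 and 36 genes, any change 38, and KCNV1 over the span (0.051), KCNA2 over the span (0.064) and the interval difference of KCNMB2 (0.072) were lost. Genes under about 1 CPM rest on few counts, and 3 counts were worth 0.0856 to 0.12 CPM in these libraries.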
